A study of Mus musculus with 5 samples.

Results

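Cholesterol synthesis was described through 7 genes, Hmgcs1, Idi1, Fdft1, Sqle, Cyp51, Dhcr7 and Insig1, in mouse retina at postnatal day 7. They were chosen by symbol as targets of the transcription factor SREBP2, and each symbol matched 1 Ensembl gene ID among the 43432 IDs of the count table. Poly(A) RNA was sequenced from 5 libraries, of which 3 are titled control (letters a, b, c) and 2 Mettl14 cko (letters a, b). The series title names Mettl14 and Mettl3, partners in the complex that writes N6-methyladenosine on messenger RNA, as joint regulators of retinal development. The labels give tissue and age group for all 5 libraries, but no allele, driver line, strain, sex or number of animals per library, and cko is taken here only as a label. The deposited table's own name joins Six3 to M3M14, which the labels leave unexplained, so the driver and whether Mettl3 was also deleted cannot be stated. The labels do not say that libraries came from separate animals, so the tests measure the spread between these libraries.

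Cells build cholesterol from acetyl-CoA through mevalonate, isoprenoid diphosphates, squalene and lanosterol. When sterols in the endoplasmic reticulum fall, the escort protein SCAP carries SREBP2 to the Golgi, where it is cut, and its released part raises transcription of nearly every enzyme of the pathway; INSIG proteins hold SCAP back when sterols are plentiful. The retina makes cholesterol locally as well as taking it up from blood, and Muller glia, photoreceptors and other neurons all contribute to its handling.

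Hmgcs1 and Insig1 are shown by sequence, as the earliest enzyme among the 7 genes and the protein that holds SREBP2 back. Both stretches lie upstream of the RefSeq start (GRCm38.p6) and are written 5′ to 3′. The Hmgcs1 stretch is chr13:119690101-119690350, plus strand, and the Insig1 stretch is chr5:28071162-28071362, plus strand, ended before the start of the gene in GENCODE.
Hmgcs1: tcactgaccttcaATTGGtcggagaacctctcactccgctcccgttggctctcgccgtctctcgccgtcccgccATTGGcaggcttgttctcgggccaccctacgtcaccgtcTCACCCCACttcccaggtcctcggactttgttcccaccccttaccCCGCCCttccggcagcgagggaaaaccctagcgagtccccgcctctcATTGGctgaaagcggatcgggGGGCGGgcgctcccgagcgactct
Insig1: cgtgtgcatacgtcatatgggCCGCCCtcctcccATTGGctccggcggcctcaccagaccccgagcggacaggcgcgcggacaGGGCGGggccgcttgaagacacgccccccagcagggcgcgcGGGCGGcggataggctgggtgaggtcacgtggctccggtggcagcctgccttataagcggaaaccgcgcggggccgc

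Capitals mark matches, on either strand, to 3 motifs: the sterol regulatory element as TCACNCCAC, the NF-Y motif CCAAT, and the Sp1 motif GGGCGG. NF-Y and Sp1 are general factors known to act beside SREBP2. Hmgcs1 held 1 sterol regulatory element, 3 CCAAT and 2 GGGCGG matches, and Insig1 held 0, 1 and 3. RefSeq windows were found for 5 of the 7 genes. Over 250 bases before each start, TCACNCCAC was in 1 of their 7 windows (14.3%) against 1.05% of all 32851 windows. CCAAT was in 5 of the 7 (71.4%) against 33.8% of all windows, and GGGCGG in 6 (85.7%) against 32.7%. Dhcr7 has 3 of these windows, 2 of which overlap, so the windows are not independent. The high shares of CCAAT and GGGCGG were not particular to the 7 genes. Each was in 8 of 8 windows of the other sterol enzymes after squalene. Each was in 3 of 3 of the other SREBP2 targets in sterol uptake and transport, and in 3 of 6 of the other mevalonate enzymes. TCACNCCAC was in 0 windows of those lists. The windows of Mvk, a mevalonate enzyme, and Mmab, an uptake and transport target, overlap, so the same bases were counted in both lists. All motif counts are matches of letters and not measured binding.

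Mettl14 was not lower in the libraries labelled cko. Its CPM (counts scaled to a TMM-adjusted library total of 1e+06) was 41.5, 46.7 and 38.7 for control a, b and c, against 55.6 and 44.8 for cko a and b. The groups overlapped (log2 fold change 0.25, standard error 0.20; adjusted p = 0.640 by edgeR). Counts are per whole gene and cannot show a loss of single exons, so they do not settle whether Mettl14 was deleted. Below, cko a and cko b therefore mean the libraries so labelled, and directions are those of the labels. Library totals were 24315693 to 27100918 counts. Over the 17039 genes tested with edgeR's quasi-likelihood test, 17 passed at an adjusted p under 0.05 (0.0998%), of which 16 were lower (0.0939%) and 1 higher (0.00587%) in cko; 0 passed without cko b and 45 without control b. Rod markers were abundant in every library (summed 9593 to 15295 CPM). Of the markers of neighbouring tissues, 6 lens genes passed the test and 0 blood genes did, while 5 blood genes had an unadjusted p under 0.05. The 9 lens markers summed to 745 to 1689 CPM in controls and 24.8 to 76.1 CPM in cko, and the 6 blood markers to 163 to 446 against 39.3 to 122 CPM. The part of these tissues in the results below was not tested. Bulk RNA cannot tell apart fewer cells of a type and less RNA per cell.

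None of the 7 genes passed the test between the groups. Their log2 fold changes, cko over control, ran from -0.26 for Idi1 to 0.28 for Sqle, 3 above 0 and 4 below, where 49.1% of all genes tested lay above 0. Their median was -0.02, beside -0.01 over all genes tested. The 7 adjusted p-values ran from 0.583 to 0.978 in edgeR; 0 of the 7 had an unadjusted p under 0.05, against 10.8% of all genes tested (5.45% higher and 5.36% lower). DESeq2 also called 0 of the 7 (0.525% of all genes), as did limma-voom (0.0939%) and edgeR with no low-count filter (0.981%). A p that misses the threshold does not show equal levels, so the intervals carry the result. The 95% intervals of all 7 genes lay within a 2-fold change either way, which was so for 61.8% of all genes tested. For 4 of the 7 (Hmgcs1, Fdft1, Cyp51 and Insig1 each between 0.697-fold and 1.45-fold) the interval also lay within 1.5-fold, against 14.7% of all genes. The intervals of Idi1 (0.550-fold to 1.27-fold), Dhcr7 (0.635-fold to 1.31-fold) and Sqle (0.902-fold to 1.63-fold) reached beyond 1.5-fold. All 7 passed the filter on low counts, with 211 to 6238 counts per library. The shares over all genes include genes with fewer counts and were not matched for count level, so they do not mark the 7 genes as unusually stable.

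**Figure D1:**
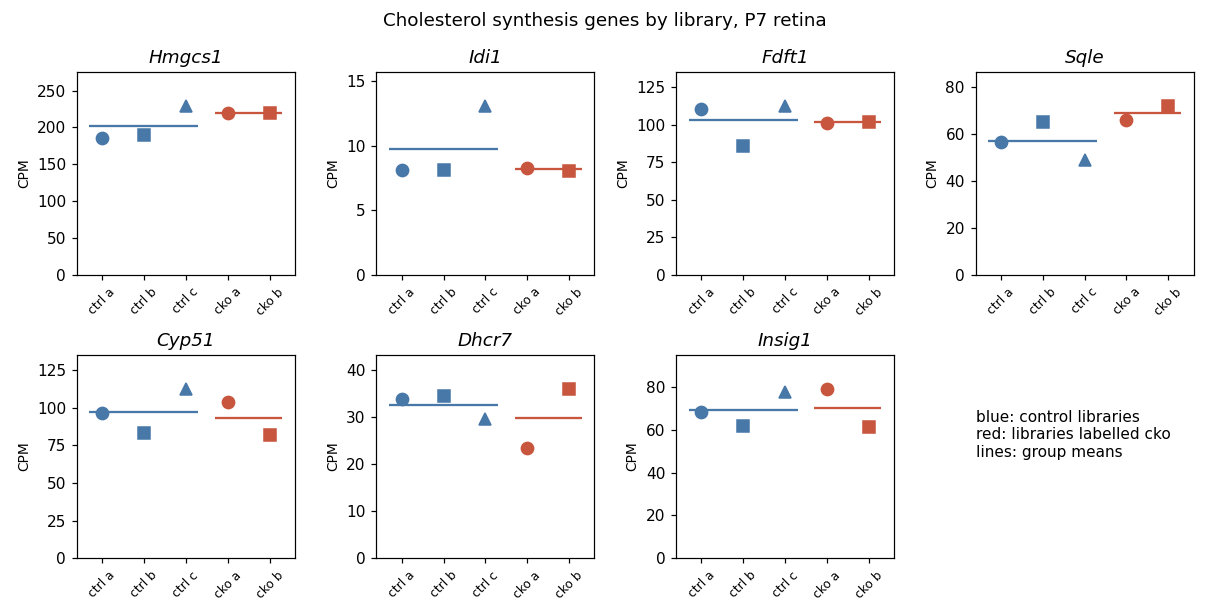
Each panel plots the CPM of 1 gene (vertical axis from 0) in control a, b and c (blue) and in cko a and b (red), with group means as lines. The groups overlap for every gene except Sqle, whose lowest cko value, 66.0 CPM, sits just above its highest control value, 65.1 CPM.

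Hmgcs1, the cytosolic synthase that makes HMG-CoA, lies on chromosome 13 from 119690379 to 119708260 (ENSMUSG00000093930, GENCODE M21 on GRCm38). Control a, b and c held 186, 190 and 229 CPM, and cko a and b 219 and 220 CPM. Both cko libraries lay inside the control range, close to each other. The means were 202 CPM ± 24.1 (SD, n = 3) and 219 CPM ± 0.754 (SD, n = 2). The log2 fold change was 0.12 (standard error, SE, 0.19; adjusted p = 0.818 by edgeR). Its 95% interval ran from 0.814-fold to 1.45-fold.

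Idi1, the isomerase that turns isopentenyl diphosphate into the dimethylallyl form, lies on the same chromosome from 8885501 to 8892451 (ENSMUSG00000058258). The controls held 8.11, 8.16 and 13.1 CPM, and cko a and b 8.31 and 8.04 CPM. Control c stood alone above 4 libraries that differed little. The log2 fold change of -0.26 (SE 0.28; adjusted p = 0.717 by edgeR) was -0.01 without control c. Its neighbour Idi2, a related isomerase gene, had too few counts to be tested.

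Fdft1, squalene synthase, which commits farnesyl diphosphate to sterols, lies on chromosome 14 from 63145150 to 63179578, minus strand (ENSMUSG00000021273). It was at 110, 85.5 and 113 CPM in the controls and at 101 and 102 CPM in cko, where both values fell between the controls. The log2 fold change was -0.02 (SE 0.20; adjusted p = 0.978 by edgeR). Its exons share 774 bases with Ctsb on the opposite strand. No strand setting is given for the counting, so reads from those bases may be lost or assigned to either gene.

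Sqle, squalene epoxidase, a rate-limiting oxygen-using step, lies on chromosome 15 from 59315077 to 59331192 (ENSMUSG00000022351). Control a, b and c held 56.4, 65.1 and 49.0 CPM, and cko a and b 66.0 and 71.9 CPM. It was the 1 gene of the 7 (14.3%) whose groups did not overlap, with cko above; groups failed to overlap for 29.4% of all genes tested, with cko above for 15.8%. The means were 56.8 CPM ± 8.07 (SD, n = 3) and 69.0 CPM ± 4.16 (SD, n = 2). Sqle had a log2 fold change of 0.28 (SE 0.20; adjusted p = 0.583 by edgeR). The interval ran from 0.902-fold to 1.63-fold. The log2 value stayed above 0 in all 16 alternative fits, from 0.15 to 0.39, with adjusted p-values from 0.365 to 0.950. That of Hmgcs1 did so too, from 0.04 to 0.22. These fits reuse the same libraries and are not independent of each other.

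Cyp51, the demethylase of lanosterol, lies on chromosome 5 from 4081145 to 4104746, minus strand (ENSMUSG00000001467). It was at 96.7, 83.4 and 113 CPM in the controls and at 104 and 82.1 CPM in cko a and b (log2 -0.07, SE 0.21; adjusted p = 0.913 by edgeR). Its spread between the cko libraries was as wide as that between the controls (SD 15.5 and 14.6 CPM). Its exons share 166 bases with Akap9 on the opposite strand.

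Dhcr7, the reductase that ends one branch of the pathway by turning 7-dehydrocholesterol into cholesterol, lies on chromosome 7 from 143823145 to 143848410 (ENSMUSG00000058454). Control a, b and c held 33.9, 34.4 and 29.6 CPM, and cko a and b 23.5 and 36.0 CPM. Cko a was the lowest and cko b the highest of the 5 libraries. The log2 fold change of -0.14 (SE 0.24; adjusted p = 0.840 by edgeR) turned to 0.14 without cko a and was -0.48 without cko b.

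Insig1, the sterol sensor that retains SCAP and is itself an SREBP2 target, lies on chromosome 5 from 28071363 to 28078662 (ENSMUSG00000045294). It was at 68.6, 61.9 and 77.9 CPM in the controls and at 79.3 and 61.5 CPM in cko a and b. The cko libraries thus held both the highest and the lowest value, and the means, 69.5 CPM ± 8.05 (SD, n = 3) and 70.4 CPM ± 12.6 (SD, n = 2), differed by far less than either spread. The log2 fold change was 0.02 (SE 0.20; adjusted p = 0.977 by edgeR), and the interval ran from 0.747-fold to 1.37-fold.

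Averaged over the 7 genes, log2 CPM relative to the control mean came to -0.03, -0.09 and 0.12 for the controls and to -0.0045 and -0.0047 for cko a and b. Both cko libraries lay between the controls. Gene by gene the cko libraries were less alike. In cko a and b, Dhcr7 was at -0.47 and 0.14, Sqle at 0.23 and 0.35, Insig1 at 0.20 and -0.17, and Cyp51 at 0.10 and -0.24. These differences ran in opposite directions and largely cancelled in the average. The median SD of log2 CPM among the controls was 0.20 for the 7 genes, against 0.20 for all tested genes whose mean reached 5 CPM.

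The 7 genes did not share 1 order over the libraries. Cyp51 and Insig1 were higher in control c than in a and lowest in b, and higher in cko a than in cko b. Sqle had the opposite order in both groups. The summed rod markers ran in the order of Cyp51 and Insig1, at 14315, 11856 and 15295 CPM in the controls and 13910 and 9593 CPM in cko. The summed Muller glia markers ran in the order of Sqle in the controls (2277, 2604 and 1674 CPM) but not in cko (2088 and 1913 CPM). The sum is weighted towards abundant markers. With each Muller marker weighted equally, mean log2 CPM minus the control mean ran in the order of Sqle in both groups. It was 0.01, 0.28 and -0.29 in the controls and -0.12 and 0.14 in cko a and b. The summed amacrine, horizontal, bipolar and endothelium markers also ran in the order of Sqle in both groups. Those of cones, ganglion cells and astrocytes ran in the order of Cyp51 and Insig1. For amacrine cells the sums were 499, 586 and 408 CPM in the controls and 593 and 756 CPM in cko. For cones they were 915, 766 and 983 CPM, and 970 and 843 CPM. Neither order was thus particular to Muller glia or rods. Of the 8 rod markers 2 had a log2 fold change above 0 and 6 below (median -0.12), and of the 12 Muller markers 5 above and 7 below (median -0.08); 0 passed the test in edgeR. Sag, the rod arrestin and most abundant rod marker, was at -0.67, and Crym, the most abundant marker of the Muller list, at -0.38. Whether cell composition had a part in these orders was not tested. By Xist and Y-linked genes, control a and b and cko a read as female, and control c and cko b as male. Within each sex Sqle was higher in cko (71.9 against 49.0 CPM in males; 66.0 against 56.4 and 65.1 CPM in females). Hmgcs1 was higher in the female cko library (219 against 186 and 190 CPM) and lower in the male one (220 against 229 CPM).

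In controls, levels per kilobase of annotated exon set the 7 genes in order. The length used joins the exons of all annotated transcripts of a gene, so the order depends in part on the annotation. Hmgcs1 was highest at 43.9 CPM per kb ± 5.24 (SD, n = 3). Fdft1, Insig1 and Cyp51 followed at 24.3, 22.5 and 22.1 CPM per kb, with overlapping ranges. Sqle was at 10.2, Dhcr7 at 5.61 and Idi1 at 2.80 CPM per kb. The ranges over the 3 controls did not overlap between Hmgcs1 and Fdft1, Cyp51 and Sqle, Sqle and Dhcr7, or Dhcr7 and Idi1.

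**Figure D2:**
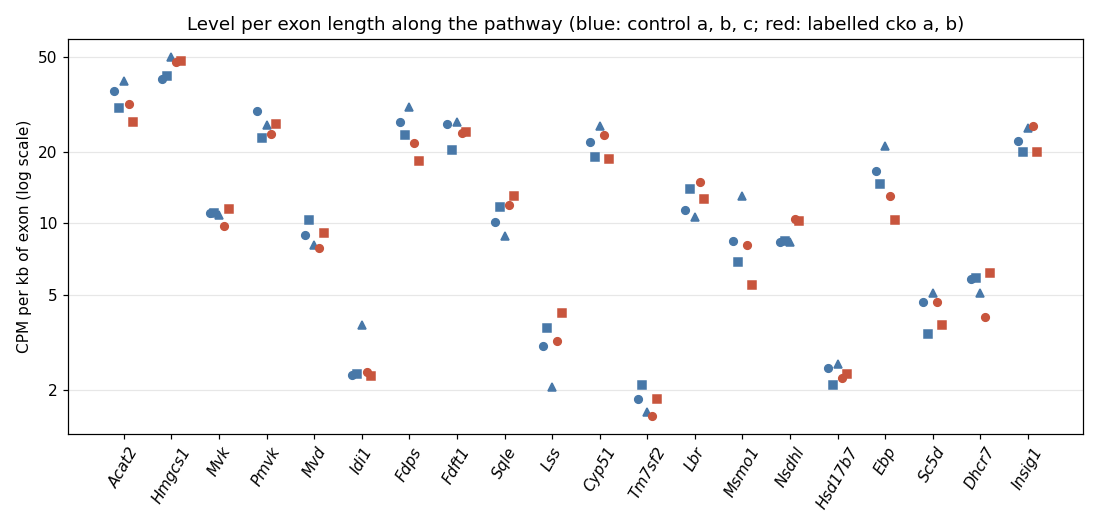
Level per exon length (CPM per kb, log scale) of the enzymes plotted in pathway order, with Insig1 last; blue points are control a, b and c and red points cko a and b. Levels span from Hmgcs1, near 43.9 CPM per kb in controls, to Tm7sf2, near 1.85, while the points of 1 gene mostly lie close together.

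The other mevalonate enzymes were measured in 6 of 7 cases. In edgeR 0 passed the test, and 0 had an unadjusted p under 0.05; in this list and each of the 6 lists below, DESeq2, limma-voom and edgeR without a low-count filter also called 0 genes. Fdps, which makes farnesyl diphosphate, was at 112, 98.6 and 130 CPM in controls and at 91.5 and 76.9 CPM in cko. Its groups did not overlap, with cko below, as for 13.7% of all genes tested, and its log2 fold change was -0.43 (SE 0.20; adjusted p = 0.464 by edgeR). Acat2, the cytosolic thiolase at the head of the pathway, had a log2 fold change of -0.28. The kinases Mvk and Pmvk and the decarboxylase Mvd had log2 fold changes of -0.05, -0.06 and -0.10. The median of the 6 was -0.08, with 1 value above 0.

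After squalene, 9 of 9 other enzymes were measured and 0 passed, with a median log2 fold change of -0.06 and 3 values above 0. Ebp, the sterol isomerase, was at 38.2, 33.9 and 48.6 CPM in controls and at 30.2 and 23.8 CPM in cko, the largest difference among the cholesterol synthesis enzymes (log2 -0.58, SE 0.24; adjusted p = 0.443 by edgeR). Ebp was the 1 cholesterol synthesis enzyme with an unadjusted p under 0.05, where 5.36% of all genes tested were lower at that level. Nsdhl, a sterol dehydrogenase, lay the other way, at 23.92, 23.99 and 23.73 CPM in controls and 29.6 and 29.1 CPM in cko, with very little spread in either group (log2 0.30, SE 0.20; adjusted p = 0.576 by edgeR). Lss, which folds epoxidised squalene into lanosterol, was at 32.9, 39.2 and 22.3 CPM in controls and 34.8 and 45.4 CPM in cko. Its log2 fold change was 0.35 (SE 0.26; adjusted p = 0.604 by edgeR). Within each group the libraries fell in the same order for Lss as for Sqle, the step before it. Msmo1, the C4 methyl oxidase, was highest in control c at 80.1 CPM, as Idi1 was, and had a log2 fold change of -0.47. The sterol reductases Lbr and Tm7sf2 had log2 fold changes of 0.20 and -0.13, Hsd17b7 -0.05 and the desaturase Sc5d -0.06.

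**Figure D3:**
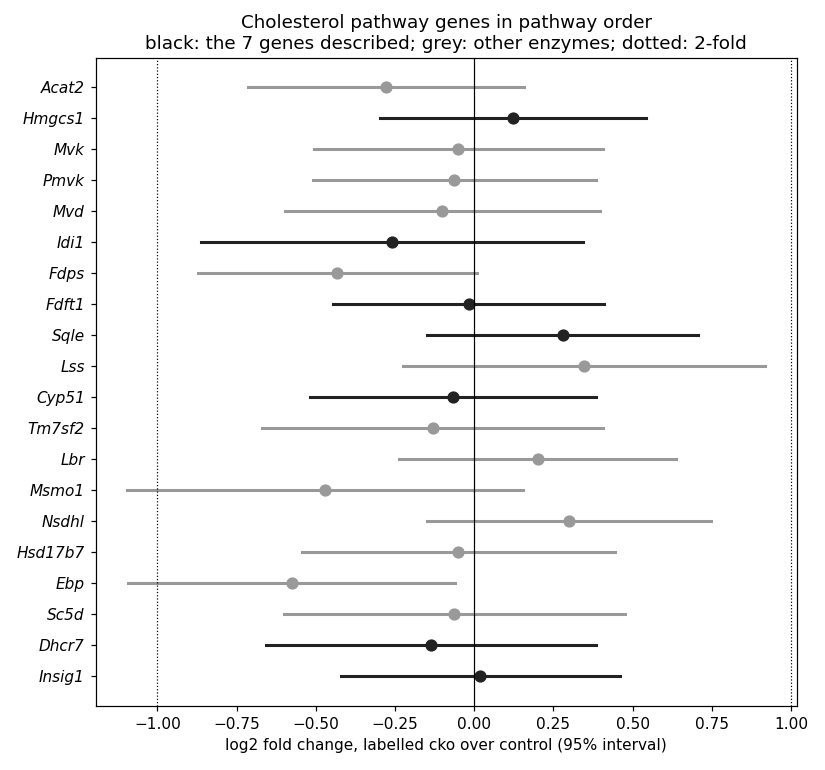
Log2 fold change of the libraries labelled cko over control (horizontal axis) with its 95% interval for the genes plotted in pathway order; black marks the 7 genes described, grey the other enzymes and dotted lines a 2-fold change. All 7 black intervals include 0 and stay inside the dotted lines, and Ebp alone among the genes shown has an interval that leaves out 0 (-1.09 to -0.06).

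Genes that process SREBP or sense sterols were all measured (11 of 11); 0 passed the test and 0 had an unadjusted p under 0.05, with a median log2 fold change of -0.11 and 9 of 11 values below 0. In 4 of them, Scap, Srebf1 and Ube2g2 included, both cko libraries lay below all controls, as for 13.7% of all genes tested. Scap, the escort of SREBP, had the smallest p of them, at 155, 151 and 143 CPM in controls and 98.9 and 127 CPM in cko (log2 -0.41, SE 0.19; adjusted p = 0.467 by edgeR). Mbtps1, the first protease to cut SREBP, had a log2 fold change of 0.29, and Rnf145, a ubiquitin ligase and the most abundant of the list, -0.01. Insig2, the second INSIG gene, was at 63.0, 51.2 and 74.6 CPM in controls and 64.8 and 51.8 CPM in cko. Within each group its libraries fell in the same order as those of Insig1.

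Srebf2, which encodes SREBP2, split the cko libraries: it was at 93.0, 107 and 76.2 CPM in controls, 40.9 CPM in cko a and 89.2 CPM in cko b (log2 -0.50, SE 0.30; adjusted p = 0.525 by edgeR). Of the 7 genes, Dhcr7 was the 1 with its lowest value in cko a. Of the 82 sterol and lipid genes tested, 5 were lower in cko a than in every other library by at least 1.5-fold, among them Srebf2, Fasn and Fads2. Over the 11676 tested genes whose mean reached 5 CPM, 632 were lowest in cko a by that margin, against 61 in cko b, 189 in control c and 2 each in control a and b. The summed markers of cycling progenitors were also lowest in cko a, at 336 CPM, against 503, 628 and 518 CPM in the controls and 537 CPM in cko b; their part in these values was not tested. Srebf2 and Fasn, and likewise Srebf1, Ube2g2, Insig2, Elovl6 and Gpam, are named after their values had been seen.

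**Figure D4:**
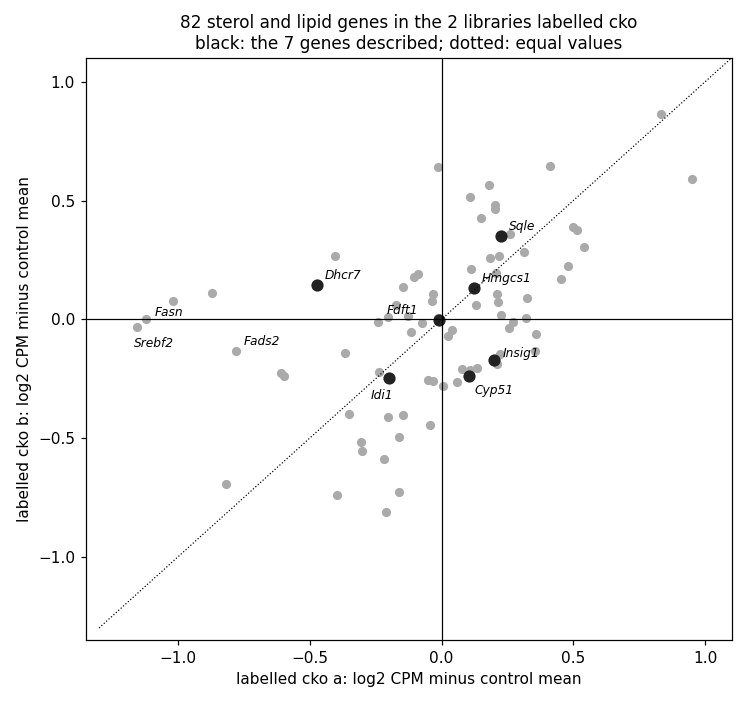
Each point is 1 of 82 sterol and lipid genes, with its log2 CPM minus the control mean in cko a (horizontal axis) and in cko b (vertical axis); black points are the 7 genes described and the dotted line marks equal values. Srebf2 and Fasn lie far left at about 0 on the vertical axis, while 6 of the 7 black points lie within 0.35 of 0 on both axes and Dhcr7 lies at -0.47 and 0.14.

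Other SREBP2 targets in sterol uptake and transport (7 of 7 measured) had 0 passing genes, 0 at an unadjusted p under 0.05, and a median log2 fold change of -0.24. Npc2, the lysosomal sterol carrier and the most abundant of them, was at 83.1, 78.8 and 93.8 CPM in controls and 66.6 and 64.4 CPM in cko (log2 -0.38, SE 0.19; adjusted p = 0.479 by edgeR). Its membrane partner Npc1 had a log2 fold change of 0.21.

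Genes of LXR signalling, efflux, esterification and oxysterols (15 of 16 measured) had 0 passing genes and a median of 0.12. Only 1 of the 15 (Lcat, lower in cko) had an unadjusted p under 0.05, where 5.36% of all genes tested were lower at that level. Apoe, the main lipid carrier secreted by retinal glia, was the most abundant, at 394, 468 and 321 CPM in controls and 556 and 506 CPM in cko. Its groups did not overlap, with cko above, as for 15.8% of all genes tested (log2 0.43, SE 0.22; adjusted p = 0.487 by edgeR). Lcat, which esterifies cholesterol on lipoproteins, was at 2.78, 3.54 and 3.27 CPM against 1.77 and 1.94 CPM (log2 -0.78, SE 0.30; adjusted p = 0.439 by edgeR).

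Fatty acid genes under SREBP1 (14 of 14 measured) had 0 passing genes and a median of 0.20, and in 3 of them, Lpin1, Gpam and Elovl6, the unadjusted p was under 0.05 with cko higher. Unadjusted values of this kind were found in 5.45% of all genes tested. Lpin1, a phosphatidate phosphatase, was at 41.3, 55.7 and 30.5 CPM in controls and 79.7 and 62.1 CPM in cko (log2 0.74, SE 0.25; adjusted p = 0.433 by edgeR). Fads2, a fatty acid desaturase, had a log2 fold change of -0.42, and Scd2, the most abundant gene of the list over all 5 libraries, 0.31. The isoprenoid branches (13 of 13 measured) had 0 passing genes, 0 at an unadjusted p under 0.05, and a median of 0.04. Dhdds, which builds dolichol and is linked to inherited retinal degeneration in humans, had a log2 fold change of 0.34, Fnta, a farnesyltransferase subunit, -0.24, and Icmt, the most abundant, -0.15.

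**Figure D5:**
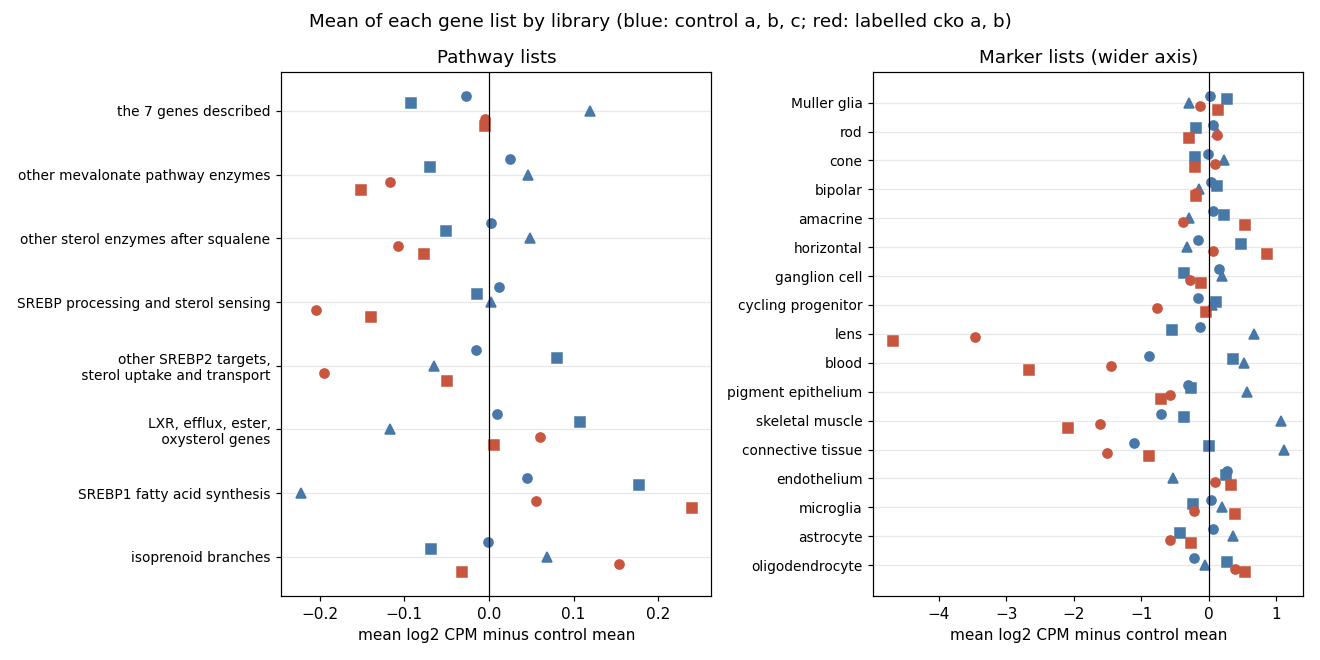
Mean log2 CPM minus the control mean of each gene list in each library (blue: control a, b and c; red: cko a and b), with pathway lists on the left and marker lists on a wider axis on the right. Both cko points of the 7 genes lie at about 0 inside the control range, while the lens list lies at -3.46 and -4.68.

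Among markers of retinal cells, median log2 fold changes were -0.08 for Muller glia, -0.12 for rods, 0.02 for cones, -0.15 for bipolar, 0.31 for amacrine and 0.57 for horizontal cells, -0.30 for ganglion cells and -0.44 for cycling progenitors. They were -4.41 for lens, -1.89 for blood, -1.96 for skeletal muscle, -1.78 for connective tissue and -1.01 for pigment epithelium, and 0.35, 0.10, -0.17 and 0.32 for endothelium, microglia, astrocytes and oligodendrocytes. For the lists other than bipolar cells, the most abundant marker had a log2 fold change of 0.21 for cones (Opn1sw), 0.64 for amacrine (Pax6) and 0.52 for horizontal cells (Tfap2b), 0.35 for ganglion cells (Nefl) and -0.54 for progenitors (Ccnd1). It was -4.47 for lens (Cryaa), -2.23 for blood (Hba-a1), -1.24 for pigment epithelium (Pmel), -1.96 for muscle (Acta1) and -2.09 for connective tissue (Col1a1). It was 0.83 for endothelium (Kdr), 0.23 for microglia (C1qb), 0.19 for astrocytes (Pdgfra) and 0.10 for oligodendrocytes (Mbp). Of all these markers, 6 lens genes passed the test.

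The genes whose pattern over the 5 libraries was most like the mean log2 CPM of the 7 genes were Ikbip, Impad1, Micu2, Hmgb2, Mrpl46, Lpar6, Brdt and Ccnb2-ps, with a Pearson r of at least 0.984. A looser limit of 0.9 was reached by 286 of 11669 genes over these 5 libraries. Hmgb2, a chromatin protein of dividing cells, was at 148, 128 and 198 CPM in controls and 156 and 157 CPM in cko, with its highest value in control c and its lowest in control b, as the mean of the 7 genes had. The summed cycling progenitor markers had another order, at 503, 628 and 518 CPM in controls and 336 and 537 CPM in cko. They were highest in control b and lowest in cko a.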

How the data were processed

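Poly(A) RNA of 5 retina libraries was measured. The authors deposited raw read counts per Ensembl gene ID without normalizing them. HISAT2, featureCounts, CASAVA and the build mm10 appear in the submitters' processing notes; for versions and the strand setting the entry is: not given in the sources used here. Of 43432 IDs, 42462 matched a symbol. Coordinates are GENCODE M21 (GRCm38). Groups come from the titles. In R 4.3.3, edgeR 4.0.16 kept 17039 genes (filterByExpr, minimum count 10, minimum total 15), scaled by TMM, and fitted glmQLFit and glmQLFTest without covariates; Benjamini-Hochberg adjustment ran over all 17039 p-values, with calls under 0.05. SE is |log2 fold change| over the root of F, and 95% intervals use it. A prior count of 2 entered log2 CPM. The fits were tested on simulated data. DESeq2 1.42.0, limma-voom (limma 3.58.1), other scalings and filters, each library left out, the title letter as block, and sex were alternatives; removal of a GC and length trend was added after seeing the data.

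The 7 genes, the 7 pathway lists and the 17 marker lists were chosen with earlier results of these data known. Named are the 7 genes, every other enzyme measured, for other pathway lists the smallest p in each direction and the most abundant gene, the most abundant gene of each marker list, and the 8 genes most like the 7 in pattern among genes of at least 5 CPM; further genes are said to be named after their values were seen. Some genes that this rule selects are not reported here, but counts and medians of lists include them. Any 2 libraries differed beyond sampling noise (chi-square per degree of freedom at least 26.7).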

Additional observations from a re-analysis of the deposited data

How the results depend on the processing

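None of the 7 genes passed the test in any of the 17 alternatives, which include a threshold of 0.01, and none of the genes of the 7 other pathway lists did under the 16 alternative fits. The median log2 fold change of the 7 genes (-0.02) ran from -0.10 to 0.0923 with each library left out. Genes called over all genes numbered 17. They were 11 with library totals, 262 with no low-count filter, 85 with DESeq2, 9 with the sex covariate, 11 at a threshold of 0.01, and 0 to 45 with each library left out (0 without cko b and 45 without control b). With the title letter as a replicate block 39 genes were called; same-lettered libraries correlated at -0.007 (a) and 0.149 (b) in their deviations. With 2 cko libraries these deviations mirror each other, and the labels tie the letters to no shared litter or batch, so no pairing was assumed. Letter c belongs to control c alone, so that library adds nothing to the fold changes under the block.

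Signs of the small differences depended on the setting. Idi1 was at 0.0060 under the block. Fdft1 was at 0.0471 with library totals, 0.0641 under the block and -0.13 to 0.0324 with libraries left out. Cyp51 was at 0.0416 under the block and -0.25 to 0.0923 with libraries left out. Dhcr7 ran from -0.48 to 0.14 and Insig1 from -0.18 to 0.19 with libraries left out, and Insig1 was at -0.0085 with the GC and length trend removed.

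Medians of the other lists also moved. With libraries left out they ran from -0.16 to -0.017 for mevalonate enzymes, -0.14 to -0.0113 after squalene, -0.24 to -0.0139 for SREBP processing, -0.25 to -0.14 for uptake and transport, 0.0008 to 0.17 for LXR and efflux, 0.0836 to 0.3028 for fatty acid synthesis, and -0.0743 to 0.16 for isoprenoid branches. After removal of the GC and length trend, the first 4 were 0.0392, -0.20, -0.14 and -0.0572, and fatty acid synthesis 0.0541. Under the block, the medians after squalene, for SREBP processing, uptake, isoprenoid branches and fatty acid synthesis were 0.0134, -0.0515, -0.13, 0.18 and 0.0851. With library totals they were -0.0020 after squalene and -0.0494 for SREBP processing. The cause was not tested. The fewest counts among the 7 genes were 211, for Idi1.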
